A study of Mus musculus with 5 samples.

Results

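The genes described here are 8 leukocyte integrin chains, Itga1, Itga4, Itgae, Itgal, Itgb1, Itgb2, Itgb3 and Itgb7, and Selplg, the gene of P-selectin glycoprotein ligand 1 (PSGL-1). They were chosen by name, and all 9 were found among the 22180 genes that the platform annotation pairs with a probe set of their own. Each gene was read from 1 probe set, the one with the highest mean over the arrays, which for Selplg was 1 of 2 and for the others the sole one. The cells were ILC2s (group 2 innate lymphoid cells, lymphocytes resident in tissue that make type 2 cytokines) taken from lungs of untreated adult male mice. The 2 tested arrays held ILC2s of IL-33 knockout (KO) mice and the 3 arrays they were set against held ILC2s of wild-type mice. All 5 were labelled as biological replicates. The sources used here do not give the strain, the deleted part of the gene or whether animals were pooled, and p-values measure the spread between these samples. Signals are log2 values, in which a difference of 1 is a doubling.

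Integrins are paired receptors of an alpha and a beta chain that hold cells to other cells and to matrix. LFA-1 (Itgal with Itgb2) binds ICAM proteins, VLA-4 (Itga4 with Itgb1) binds VCAM-1, the pair of Itga4 and Itgb7 binds MAdCAM-1, the pair of Itgae and Itgb7 binds E-cadherin on epithelium, and the pair of Itga1 and Itgb1 binds collagen. Itgb3 pairs with Itgav, and in platelets with Itga2b. PSGL-1 is a mucin on leukocytes that lets them roll on selectins once its sugars and tyrosines have been modified. These molecules govern how lymphocytes enter tissue, stay there and touch their neighbours, and the comparison asks whether their transcripts differ in lung ILC2s of mice without IL-33.

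Il33 itself, made mainly by epithelial and stromal cells, read 3.79 and 3.95 in KO arrays, against 3.37, 3.39 and 3.32 in wild-type arrays. These signals lay below the array medians and were higher in KO, and since the position of the probes is not known here they do not check the genotype labels. ILC2 markers were present on all 5 arrays, and 1 KO array went against its sex label. All 14 of the ILC2 markers with a probe set lay above the median gene, among them Il7r at 11.45 and 11.44 in the KO arrays, against 11.38, 11.26 and 11.38 in the wild-type arrays. Gata3, the defining transcription factor, read 8.21 and 7.89 in KO arrays and 8.21, 8.16 and 8.50 in wild-type arrays. Without overlap 3 of the 14 (Icos, Rora and Il7r) were higher in KO and 2 (Il17rb and Ptprc) lower. Over all genes tested 11.6% were higher and 6.32% lower in that way, and 11.8% of the 4159 genes with the highest mean signals were lower. Some markers stood farther apart than Il7r and Gata3. Icos, a costimulatory receptor, was among the higher, at 8.28 and 8.55 in KO arrays, against 7.07, 7.08 and 7.28 in wild-type arrays. Klrg1, an inhibitory receptor, read 9.25 and 8.51 in KO arrays, against 9.51, 9.55 and 9.25 in wild-type arrays. Il5, a type 2 cytokine gene, read 4.43 and 5.59 in KO arrays, against 5.59, 5.59 and 6.37 in wild-type arrays, and like Klrg1 shared a value between the groups. The linear signals of the 14 summed to 8112.3 and 7965.6 in KO arrays and 8070.6 to 8838.2 in wild-type arrays. Il1rl1, which encodes the IL-33 receptor, had no probe set of its own in the annotation. KO replicate 2, labelled male, had a signal of 7.91 for the X-inactivation transcript Xist, against 3.10 in KO replicate 1 and 2.35 to 3.10 in wild type. The Y-linked gene Eif2s3y also gave a signal there, 6.14, against 7.07 in KO replicate 1 and 6.83 to 7.62 in wild type. KO replicate 1 held airway transcripts, with Bpifa1 at 8.52, against 3.22 in KO replicate 2 and 2.85 to 3.22 in wild type. Wild-type replicate 2 had the highest signal of the macrophage marker Lyz2, 5.58, against 2.47 to 3.77 on the other arrays. It also had the highest signal of the neutrophil marker Retnlg, 5.36, against 2.00 to 3.13. Another neutrophil marker, S100a8, was highest in KO replicate 1, at 3.82, against 3.38 in wild-type replicate 2. Each of the 9 genes is therefore given with both KO arrays one by one beside its difference.

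As a group the genes lay lower in KO cells, 8 of the 9 in mean, and none passed the test. The median of the 9 differences, KO minus wild type, was -0.42 on the log2 scale, against 0.0385 for all 16635 genes tested. Differences below 0 made up 39.8% of all genes tested and 51.2% of the 4159 with the highest mean signals, here called the brightest genes. For 4 genes, Itgb2, Selplg, Itga4 and Itgb7, both KO arrays lay below all 3 wild-type arrays. That pattern was found in 6.32% of all genes tested and in 11.8% of the brightest genes, which held 6 of the 9 genes including those 4. With limma and Benjamini-Hochberg adjustment, 0 genes of 16635 (0.0%) had an adjusted p below 0.05, the lowest being 0.327. Before adjustment, 1271 genes (7.64%) had a p below 0.05, and 431 of them (2.59%) were lower in KO; 3 of the 9 genes, Itgb2, Selplg and Itgb7, were among these. Of the brightest genes 5.12% met that condition.

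**Figure D1:**
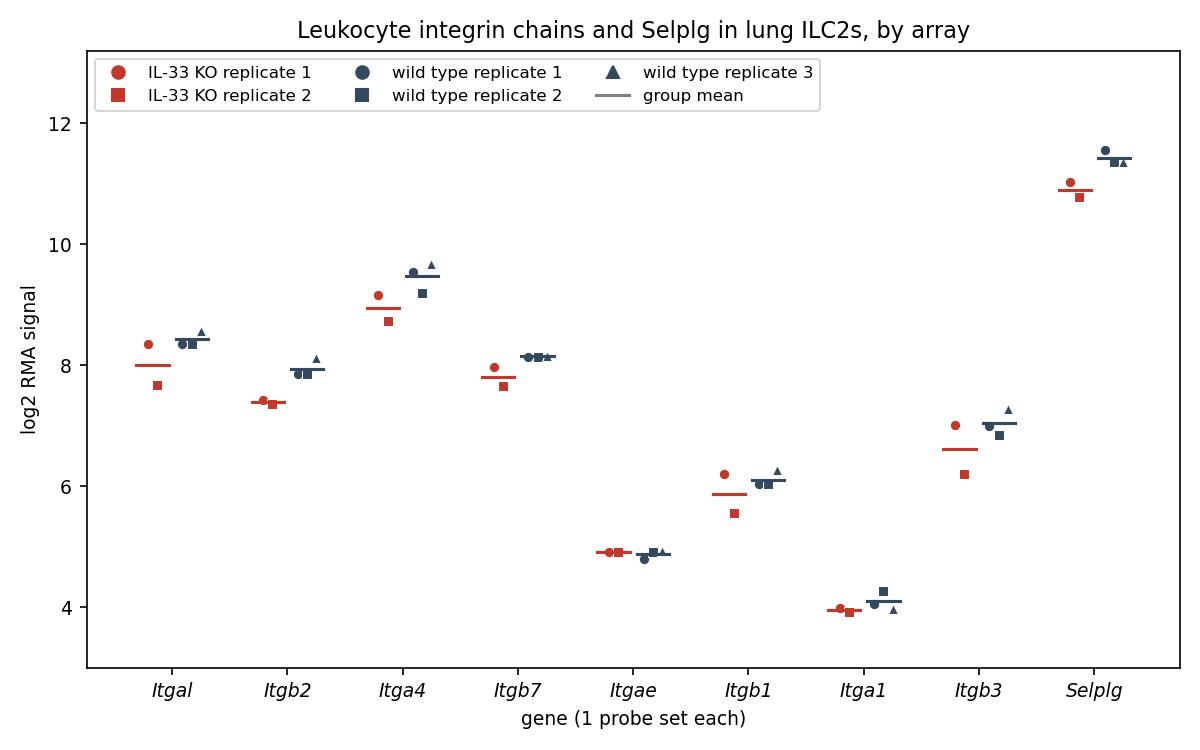
Log2 RMA signal (vertical axis) of the 9 genes on each array, with KO arrays in red at left of the wild-type arrays in dark blue, marker shape for the replicate and a bar for the group mean. Itgb2, Itga4, Itgb7 and Selplg show both KO arrays below all 3 wild-type arrays, while for Itgal, Itgb1 and Itgb3 KO replicate 1 lies inside the wild-type range and KO replicate 2 below it; probe sets differ in response, so heights are not compared between genes.

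The LFA-1 chains showed a lower beta chain in each KO array and an alpha chain that was lower in 1 of them. Itgb2 (CD18, the beta chain shared by the leukocyte integrins; chromosome 10, 77530329 to 77565708 in GRCm38.p6) read 7.43 and 7.36 in KO arrays, against 7.85, 7.85 and 8.12 in wild-type arrays. The KO arrays lay close together and below every wild-type array. The difference was -0.55 (SE 0.11, 95% interval -0.85 to -0.24), a level 1.46-fold higher in wild type, with a limma adjusted p of 0.453. Without KO replicate 2 the difference was -0.51, and without KO replicate 1 it was -0.58, so both arrays gave nearly the same size. Itgal (CD11a, which binds ICAM-1) read 8.36 and 7.67 in KO arrays, against 8.36, 8.36 and 8.57 in wild-type arrays. KO replicate 1 shared its value with a wild-type array, and the difference of -0.42 (SE 0.24, 95% interval -1.09 to 0.26, adjusted p 0.623 with limma) came from KO replicate 2. Against the wild-type mean KO replicate 1 stood at -0.07 and KO replicate 2 at -0.76.

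Of the chains that bind VCAM-1 and MAdCAM-1, Itga4 and Itgb7 were lower in both KO arrays and Itgb1 was not. Itga4 (CD49d; chromosome 2, 79255426 to 79333114) read 9.16 and 8.74 in KO arrays, against 9.55, 9.20 and 9.68 in wild-type arrays. The groups were separated only by the small gap between KO replicate 1 and wild-type replicate 2. Its difference was -0.52 (SE 0.22, 95% interval -1.13 to 0.08, adjusted p 0.623 with limma), with KO replicate 1 at -0.31 and KO replicate 2 at -0.73 from the wild-type mean. Itgb7 (chromosome 15, 102215994 to 102233405) read 7.97 and 7.65 in KO arrays, against 8.14, 8.14 and 8.16 in wild-type arrays. The wild-type values of this gene spanned only 0.0178, which makes its error small in fits that rest on them. The difference was -0.34 (SE 0.11, 95% interval -0.65 to -0.03), with an adjusted p of 0.596 by limma. With KO replicate 2 as the lone KO array it was -0.50 with an adjusted p of 0.0201 by limma, and with KO replicate 1 alone it was -0.18 with an adjusted p of 0.0839. Itgb1 (CD29, the most widely shared beta chain) read 6.20 and 5.56 in KO arrays, against 6.04, 6.04 and 6.26 in wild-type arrays. Its difference of -0.23 (SE 0.23, 95% interval -0.87 to 0.41, adjusted p 0.685 with limma) had the opposite sign, 0.09, without KO replicate 2.

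The promoters of Itga4 and Itgb7 are shown because these partner chains were both lower in each KO array. Windows were found for 4 of the 9 genes in the RefSeq table of GRCm38.p6 (Itga1, Itga4, Itgb1 and Itgb7). The bases before the start of transcription follow, 5′ to 3′ on the gene's strand, at chr2:79255176-79255425 (plus strand) for Itga4 and chr15:102231936-102232185 (minus strand) for Itgb7. The Itgb7 window lies inside the annotated span of the gene, before the start of a shorter transcript. Capitals mark matches, on either strand, to letters bound by known families of factors. RUNX factors bind TGTGGT, and this was the first motif searched. Factors of the KLF and SP families bind GGGCGG, the last one searched. For ETS factors the search used CCGGAA, a core of their sites. For GATA factors it used AGATAA, which includes their core.
Itga4: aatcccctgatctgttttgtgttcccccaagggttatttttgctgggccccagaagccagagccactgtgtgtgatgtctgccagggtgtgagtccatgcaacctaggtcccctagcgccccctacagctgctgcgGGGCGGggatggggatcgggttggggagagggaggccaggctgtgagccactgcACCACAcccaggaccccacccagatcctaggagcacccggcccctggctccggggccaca
Itgb7: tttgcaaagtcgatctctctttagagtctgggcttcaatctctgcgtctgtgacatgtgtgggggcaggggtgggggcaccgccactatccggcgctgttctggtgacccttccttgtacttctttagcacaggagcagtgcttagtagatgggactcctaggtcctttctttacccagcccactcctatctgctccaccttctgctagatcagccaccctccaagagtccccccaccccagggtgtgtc
Itga4 held 1 RUNX match, beginning at position -60 counted back from the start, and 1 KLF match at -114, and Itgb7 held a match to none of these letters. Among 32851 windows of the same length, 14% held the RUNX letters, 32.7% the KLF letters, 12.0% the ETS letters and 9.99% the GATA letters. The Itga4 window had 64.0% G and C and the Itgb7 window 56.0%, against a median of 52.4% over all windows.

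Of the chains that tie lymphocytes to epithelium and collagen, Itgae lay a little above and Itga1 below the median gene in both genotypes. The mean signal of Itgae exceeded that of 60.1% of genes and that of Itga1 37.8%. Such levels do not by themselves show expression in ILC2s. Itgae (CD103) read 4.92 in both KO arrays, against 4.79, 4.92 and 4.92 in wild-type arrays. The KO arrays and a wild-type array had exactly the same value, above the array medians, and the difference was 0.04 (SE 0.06, 95% interval -0.13 to 0.21, adjusted p 0.791 with limma). Itga1 (CD49a, also used as a marker of tissue-resident NK cells and ILC1s) read 3.99 and 3.92 in KO arrays, against 4.05, 4.27 and 3.97 in wild-type arrays. The Itga1 values lay below the median of all probe sets on every array, 4.29 to 4.33, and the groups overlapped. The difference of Itga1 was -0.14 (SE 0.11, 95% interval -0.46 to 0.17, adjusted p 0.629 with limma). NK cell and ILC1 markers, 9 of 10 with a probe set, had a summed linear signal of 246.1 and 413.1 in KO arrays and 255.1 to 265.9 in wild-type arrays. In KO replicate 2 Nkg7 (7.56), Gzma (6.56) and Gzmb (4.26) stood above every wild-type array. Eomes, Tbx21, Ncr1, Klrb1c, Klrk1 and Prf1 lay within the wild-type values there. The part of NK cells and ILC1s in the Itgae and Itga1 values was not tested.

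Itgb3, the beta chain of the vitronectin receptor, had a clear signal in these cells that differed in KO replicate 2. It read 7.01 and 6.21 in KO arrays, against 7.00, 6.85 and 7.28 in wild-type arrays. KO replicate 1 lay within the wild-type values and KO replicate 2 below them, at -0.83 from the wild-type mean. The difference over both arrays was -0.43 (SE 0.30, 95% interval -1.28 to 0.41, adjusted p 0.623 with limma), and -0.03 without KO replicate 2. Its partner Itgav showed the same order, at 7.06 and 6.07 in KO arrays, against 6.86, 6.57 and 7.15 in wild-type arrays, a difference of -0.30 (SE 0.38) that had the opposite sign, 0.20, without KO replicate 2 and 0.19 with its 2 probe sets averaged. Itga2b, the platelet partner, stood at 4.80 in both KO arrays, against 4.80 to 4.81 in wild type. The platelet genes Pf4 and Ppbp read 3.38 to 3.55 in KO arrays and 3.39 to 4.20 in wild-type arrays, below the array medians. The platelet genes Gp9, at 5.72 to 6.28 over the 5 arrays, and Treml1, at 4.89 to 5.23, lay above these medians, as did Itga2b. The 7 of 10 platelet markers with a probe set summed to 155.7 and 176.7 linear signal units in KO arrays and to 166.2 to 181.2 in wild type. Of these 7 markers 3 lay above the median gene. The part of platelets in the Itgb3 signal was not tested.

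Selplg, whose signal lay far above the upper quartile of every array (5.57 to 5.73), was lower in both KO arrays. Its probe set (chromosome 5, 113817798 to 113832528 for the gene) read 11.04 and 10.77 in KO arrays, against 11.56, 11.36 and 11.36 in wild-type arrays. The groups did not overlap, and the gap between them exceeded the range within either. The difference was -0.52 (SE 0.12, 95% interval -0.86 to -0.18), a level 1.43-fold higher in wild type, with an adjusted p of 0.491 by limma. Without KO replicate 2 it was -0.39, and without KO replicate 1 it was -0.65. A second Selplg probe set read 6.12 on every array except wild-type replicate 1, where it read 6.77, so the 2 probe sets did not show the same pattern. With the probe sets averaged, the difference of Selplg was -0.37.

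**Figure D2:**
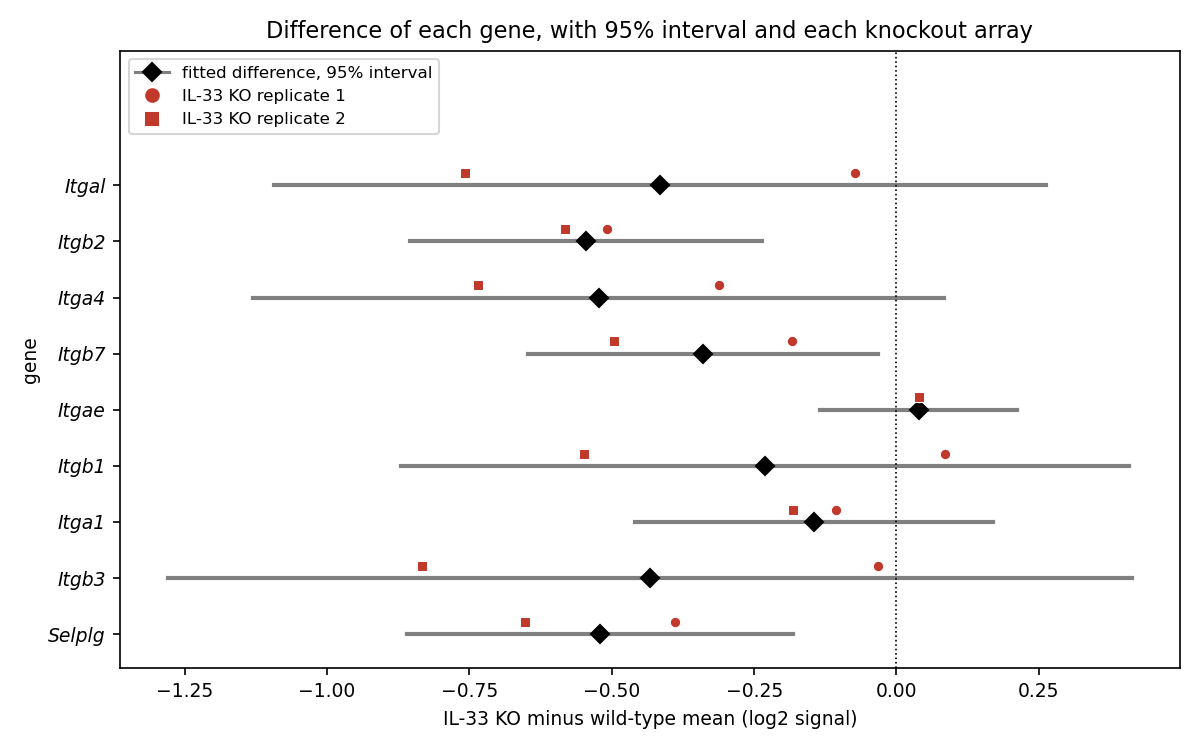
Difference from the wild-type mean in log2 signal (horizontal axis) for each gene (vertical axis), with the fitted difference as a diamond, its 95% interval as a grey line, and KO replicates 1 and 2 as a red circle and a red square. The intervals of Itgb2, Selplg and Itgb7 lie below 0, and in Itgal, Itgb1 and Itgb3 the squares lie far to the left of the circles. For Itgae the square covers the circle.

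The KO arrays did not contribute equally. KO replicate 2 was below every wild-type array for 8 of the 9 genes, all but Itgae, where 23.6% of all genes tested and 39.8% of the brightest were. KO replicate 1 was below every wild-type array for 4 of the 9 genes, against 16.6% of all genes tested and 21.3% of the brightest. The median distance from the wild-type mean over the 9 genes was -0.11 in KO replicate 1 and -0.58 in KO replicate 2. Over all the brightest genes it was 0.04 in KO replicate 1 and -0.06 in KO replicate 2. Ptprc, which encodes the common leukocyte antigen CD45, stood at 9.83 and 9.46 in KO arrays, against 9.94, 9.87 and 10.33 in wild-type arrays, and so was also lower in both. It was 1 of the 14 ILC2 markers, of which 2 were lower and 3 higher without overlap. Over all genes tested 6.32% were lower and 11.6% higher in that way, and 11.8% of the brightest were lower. Epithelial markers, all 10 with a probe set, summed to 1121.6 and 309.9 linear units in KO arrays and 217.0 to 249.4 in wild type, and endothelial markers to 421.8 and 597.3 against 358.1 to 379.9. Not all genes of these lists followed the sums. Of the 10 epithelial markers 4 were higher and 0 lower without overlap, and of the 10 endothelial markers 3 and 1. The differences of Cdh1, Krt8 and Krt18 lay between -0.26 and 0.02. Cdh5 (1.44) and Cldn5 (1.59) were higher in mean, while Kdr (-0.15), Tek (-0.17), Emcn (-0.37) and Sox17 (-0.06) were lower. The other endothelial markers differed by 0.07 to 0.27. Fewer ILC2s among the cells sorted and less RNA of a gene per ILC2 cannot be told apart in such bulk samples, and the part of epithelial and endothelial cells in the differences was not tested. KO replicate 2 was also the array with Xist at 7.91 and the lowest Eif2s3y signal, 6.14. The part of this sex-linked signal in its differences was not tested and cannot be told apart from genotype on that array.

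Integrin chains outside the set, many of them known from stromal, epithelial and muscle cells, were not lower as a group. Of 15 tested among 19 listed, 7 differences were above and 8 below 0, the median was -0.0041, and 4 were higher without overlap (11.6% of all genes tested) and 0 lower. Those 4 were Itga7, a laminin receptor chain of muscle, Itgb5, which pairs with Itgav, Itga11, a collagen receptor chain of fibroblasts, and Itgb4, of hemidesmosomes. Itga7 read 4.52 and 4.60 in KO arrays, against 4.30, 4.14 and 4.21 in wild-type arrays, a difference of 0.34 (SE 0.07, adjusted p 0.453 with limma). Itgb5 read 4.34 and 4.07 in KO arrays and 3.82 in each wild-type array, a difference of 0.39 with an adjusted p of 0.514 by limma. Its wild-type values were exactly equal, so their spread gives no error for this gene. Itga11 read 3.90 and 4.04 in KO arrays, against 3.60, 3.55 and 3.29 in wild-type arrays, a difference of 0.49. Itgb4 read 4.36 and 4.63 in KO arrays, against 4.29, 4.27 and 3.97 in wild-type arrays, a difference of 0.32 that was 0.19 without KO replicate 2. The group means of these 4 lay between 3.48 and 4.56, near or below the array medians.

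Genes that link integrins to the cytoskeleton included lower and higher ones in KO cells. Of 21 integrin activation genes tested among 23 listed, 9 differences were above and 11 below 0, the median was -0.04, 4 were lower and 2 higher without overlap, and none passed. Over all genes tested 6.32% were lower and 11.6% higher in that way, and 11.8% of the brightest genes were lower. Flna, the actin crosslinker filamin A that binds integrin tails, read 7.09 and 6.92 in KO arrays, against 7.77, 7.48 and 7.53 in wild-type arrays, a difference of -0.59 (SE 0.12, adjusted p 0.462 with limma). Tln1 (talin, the final activator of integrins) read 6.81 and 6.70 in KO arrays, against 7.40, 6.93 and 7.04 in wild-type arrays, a difference of -0.37. Fermt3, or kindlin-3, the talin partner of blood cells, read 7.14 and 6.44 in KO arrays, against 7.29, 7.27 and 7.37 in wild-type arrays. Its difference was -0.52 over both KO arrays, -0.17 without KO replicate 2 and -0.87 without KO replicate 1, the last with an adjusted p of 0.0332 by limma. Dok1, an adaptor that competes with talin for beta tails, showed the widest difference of the list, -1.25 (SE 0.26, adjusted p 0.466 with limma), at 5.01 and 4.27 in KO arrays, against 5.84, 6.04 and 5.78 in wild-type arrays. With KO replicate 2 as the lone KO array it was -1.62, with an adjusted p of 0.0465 by limma. Cytip, which restrains LFA-1 adhesion through cytohesin-1, was higher, at 7.75 and 7.32 in KO arrays, against 7.07, 7.07 and 6.93 in wild-type arrays. Rap1b, a small GTPase that switches integrins on, was 0.23 higher, with 11.25 and 10.92 in KO arrays, against 10.80, 10.87 and 10.87 in wild-type arrays. The Rap1b difference was 0.40 with KO replicate 1 alone and 0.07 with KO replicate 2 alone. A second Rap1b probe set read 6.74 and 5.45 in KO arrays, against 5.45, 5.09 and 5.18 in wild-type arrays. Its difference of 0.85 came mostly from KO replicate 1, and KO replicate 2 shared a value with wild-type replicate 1. With both probe sets averaged the Rap1b difference was 0.54.

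Among 17 adhesion complex genes tested of 19 listed, 7 differences were above and 10 below 0, with a median of -0.06. Without overlap 3 were lower and 1 higher, where the shares over all genes tested were 6.32% and 11.6%. Of the brightest genes 11.8% were lower in that way. The actin crosslinker gene Actn4 read 7.33 and 7.08 in KO arrays, against 7.50, 7.64 and 7.53 in wild-type arrays, a difference of -0.35 (SE 0.10, adjusted p 0.556 with limma). Vcl (vinculin) read 5.87 and 5.04 in KO arrays, against 5.94, 5.99 and 6.23 in wild-type arrays. Its difference of -0.60 (SE 0.29) came mostly from KO replicate 2, being -0.19 without that array and -1.02 without KO replicate 1. Parvg (gamma-parvin, the leukocyte form) read 8.35 and 8.25 in KO arrays, against 8.52, 8.39 and 8.54 in wild-type arrays, a difference of -0.18 (SE 0.07). Tns3, a tensin gene, was 0.35 higher at a low signal, 3.92 and 4.21 in KO arrays, against 3.66, 3.87 and 3.63 in wild-type arrays. Without KO replicate 2 it was 0.20.

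Selectins and integrin ligands, 17 genes tested of 19 listed, had 8 differences above and 8 below 0 and a median of 0.0. Without overlap 2 were higher and 2 lower, where 11.6% of all genes tested were higher and 6.32% lower in that way. Of the brightest genes 11.8% were lower without overlap. Spn (CD43, another sialomucin that can bind E-selectin) read 6.78 and 6.80 in KO arrays, against 7.18, 7.04 and 7.06 in wild-type arrays, a difference of -0.30 (SE 0.06, adjusted p 0.462 with limma). Icam1, an LFA-1 ligand, was the other lower gene, at 6.62 and 6.40 in KO arrays, against 6.67, 7.08 and 6.67 in wild-type arrays. Higher were Icam4, an integrin ligand of red cells, by 1.24 (SE 0.37), and Cd24a, a glycoprotein that can bind P-selectin, by 1.11 (SE 0.30). Icam4 read 6.30 and 7.02 in KO arrays, against 5.92, 5.12 and 5.22 in wild-type arrays. Cd24a read 6.13 and 6.75 in KO arrays, against 4.96, 5.56 and 5.46 in wild-type arrays, while its second probe set differed by -0.04 and the average of both by 0.54. F11r, or JAM-A, a junction protein that LFA-1 can bind, read 4.65 and 3.93 in KO arrays, against 3.90, 3.93 and 3.66 in wild-type arrays. Its difference of 0.46 was 0.82 with KO replicate 1 alone, the array with airway transcripts, and 0.10 with KO replicate 2 alone.

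The enzymes that make PSGL-1 able to bind selectins included 1 gene with the smallest p of the lists described here. Gcnt1, which builds the core 2 branch that carries the selectin-binding sugars, read 8.31 and 8.09 in KO arrays, against 7.65, 7.52 and 7.65 in wild-type arrays. Both KO arrays lay above all wild-type arrays, opposite to Selplg itself. The difference was 0.59 (SE 0.10), with an adjusted p of 0.415 by limma. Fut4, a fucosyltransferase gene, read 4.46 and 4.02 in KO arrays, against 3.96, 3.96 and 3.87 in wild-type arrays. Its difference of 0.31 was 0.53 with KO replicate 1 alone and 0.09 with KO replicate 2 alone. Slc35c1, the GDP-fucose transporter of the Golgi, read 5.09 and 4.90 in KO arrays, against 4.90, 4.78 and 4.90 in wild-type arrays, with a difference of 0.14 that was 0.23 with KO replicate 1 alone and 0.04 with KO replicate 2 alone. Tpst2, of tyrosine sulphation, read 7.49 and 6.94 in KO arrays, against 7.64, 7.49 and 7.60 in wild-type arrays, a difference of -0.36 (SE 0.19) that was -0.09 without KO replicate 2. Fut7, the fucosyltransferase most tied to selectin ligands in mouse leukocytes, read 4.66 in both KO arrays and 4.62 to 4.67 in wild type. Of 13 genes tested in this list, 8 differences were above and 5 below 0, with a median of 0.05, 2 higher and 0 lower without overlap (11.6% and 6.32% of all genes tested), and none passed the test.

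**Figure D3:**
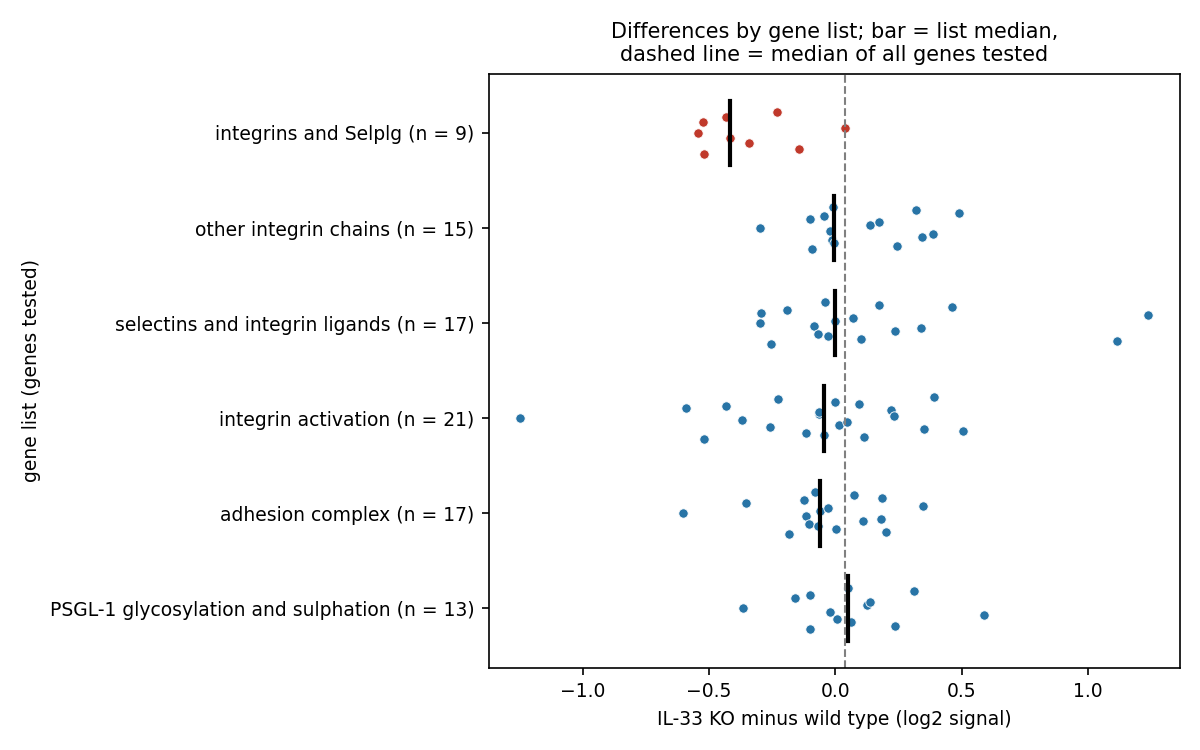
Difference KO minus wild type in log2 signal (horizontal axis) of every gene tested, 1 point each, for the 9 genes in red and the 5 pathway lists in blue, with a black bar for each list's median and a dashed line at the median of all genes tested, 0.0385. The median of the 9 genes lies at -0.42 and those of the pathway lists between -0.06 and 0.05.

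**Figure D4:**
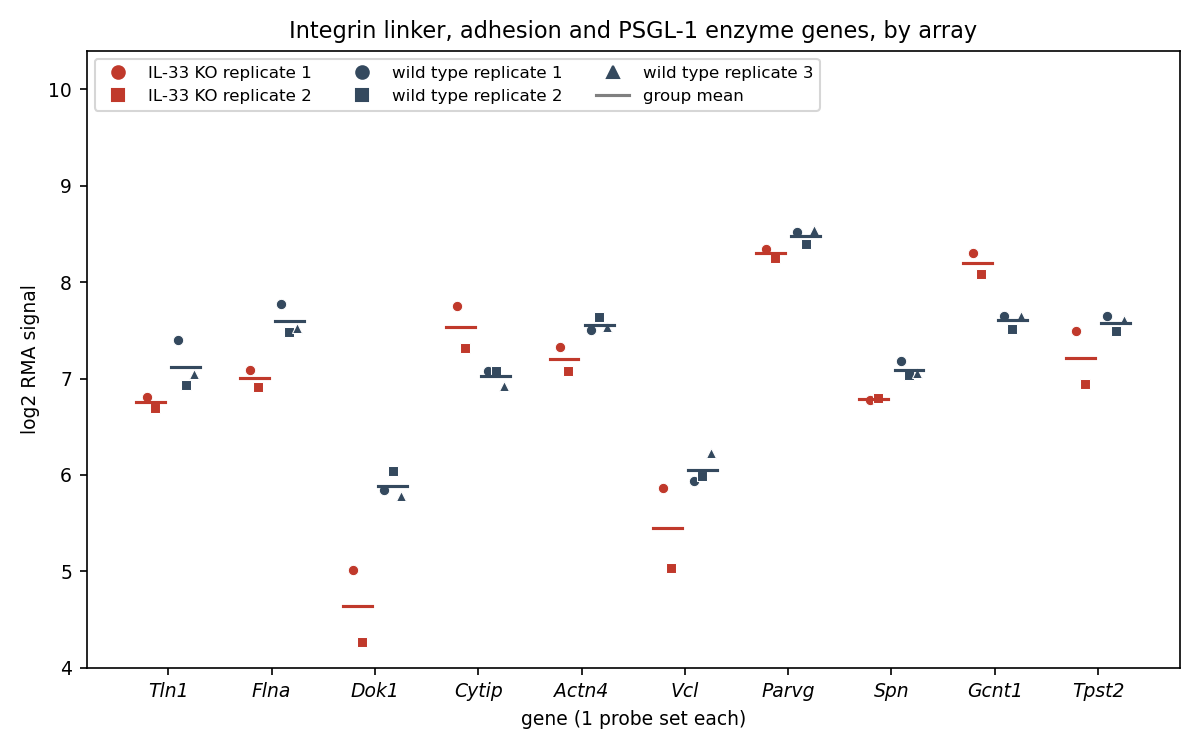
Log2 RMA signal (vertical axis) of 10 genes that work with integrins or PSGL-1, with KO arrays in red at left of the wild-type arrays in dark blue and a bar for each group mean. Tln1, Flna, Dok1, Actn4, Vcl, Parvg and Spn show both KO arrays below all wild-type arrays, Cytip and Gcnt1 both above, and in Tpst2 the groups share a value.

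Genes whose pattern over the 5 arrays came closest to a member were sought for Itgb2, Selplg and Itgb7, by the root mean square distance of values centred on each gene's mean. Nearest to Itgb2 were Prkcsh, the glucosidase II beta subunit gene, at a distance of 0.03 log2 units, Apobec1, a cytidine deaminase gene, at 0.05, and Bace2, a protease gene, at 0.07. Prkcsh read 6.12 and 6.08 in KO arrays, against 6.63, 6.59 and 6.87 in wild-type arrays. Nearest to Selplg were Actr8, Agap2 and Pdlim2, at distances of 0.03 to 0.04, and nearest to Itgb7 were Mindy1, Arhgap30 and Nup210, at 0.02 to 0.03. Differences of these 9 genes ran from -0.61 for Bace2 to -0.32, and the likeness is over 5 arrays among 16635 genes.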

How the data were processed

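Total RNA was extracted with Trizol and labelled with a biotin kit, per the labels' protocols. The authors deposited log2 probe-set signals for which the submitters' processing notes name Expression Console of Affymetrix and RMA. Versions, settings and genome build are not given in the sources used here. As commonly run, RMA equalises the distribution of signals over arrays, so a change of all transcripts together cannot be seen. Many deposited values are exactly equal between arrays, which makes the spread of some genes too small. Arrays have no read depth; their number limits the precision.

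Of 41345 probe sets, 23521 had 1 symbol in the platform annotation, 1814 several and 16010 none. For several probe sets of a gene the one with the highest mean was used (22180 genes). Those in the lowest 25% by mean over all 5 arrays were left out, and 16635 were tested, all 9 members among them. The test was that of limma 3.58.1, run in R 4.3.3 with lmFit and eBayes, without a block, on 2 KO and 3 wild-type arrays. Benjamini-Hochberg adjustment was over all genes tested, with a threshold of 0.05. A run on simulated normal values without ties was required only to return known shifts at their size. A two-sided exact permutation of 2 against 3 arrays cannot give a p below 0.1, so none is printed. Linear sums of markers add 2 raised to each log2 signal. Alternatives covered the filter, the probe sets per gene, normalization, the prior on variances, weights per array, a block for the replicate number and leaving out each array. The members and lists were chosen with earlier results of these data known. Named were the members, up to 4 genes with the smallest p of each pathway list, and 3 genes nearest in pattern to each of up to 3 members with no overlap and an unadjusted p below 0.05. Fermt3, Rap1b, Icam1, Fut7, Ptprc, Il1rl1, Icos, Klrg1, Il5, Rora, Il17rb, Gp9 and Treml1 were named after values were seen. So were the single NK cell and ILC1, macrophage, neutrophil and endothelial markers, and Cdh1, Krt8 and Krt18. Gene positions are those of the RefSeq table of GRCm38.p6; the deposited values carry no positions.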

Additional observations from a re-analysis of the deposited data

How the results depend on the processing

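With each array left out in turn, 0 to 1072 genes passed limma's threshold (1072 without KO replicate 1, 389 without KO replicate 2, 0 in each fit that left out a wild-type array), 0 to 1 of the 9 members (Itgb7, without KO replicate 1), and 0 to 6 of the pathway genes; the fits with a lone KO array take its spread from wild type. Without KO replicate 1 the members lower without overlap numbered 8, and without KO replicate 2 they numbered 4. Leaving out 1 array, the log2 differences ran from -0.59 to -0.46 for Itgb2, -0.65 to -0.39 for Selplg, -0.73 to -0.31 for Itga4, -0.50 to -0.18 for Itgb7, -0.76 to -0.07 for Itgal, -0.83 to -0.03 for Itgb3, -0.55 to 0.086 for Itgb1, -0.21 to -0.06 for Itga1 and -0.0038 to 0.062 for Itgae. The sign turned for Itgb1 without KO replicate 2 (0.086) and for Itgae without wild-type replicate 1 (-0.0038). Under the 8 other alternatives no member passed, no sign turned and no gene passed; Itga1 was not tested where 50% of genes were left out as dim. Of 36 other named genes, 33 showed no turned sign. The signs that turned were those of Fut7, at -0.0043 with median centring and -0.0061 to 0.0158 over the fits without 1 array (-0.0061 without wild-type replicate 1), of Itgav, at 0.19 with probe sets averaged and -0.79 to 0.20 over the fits without 1 array (0.20 without KO replicate 2), and of Itga2b, at 0.0117 with quantile normalization. With a single KO array, Itgb5, whose wild-type values are all equal, passed with either, and Dok1, Mindy1, Arhgap30 and Fermt3 with KO replicate 2. All genes tested had a median difference of 0.05 after quantile normalization and 0.03 after median centring, against 0.0385 as deposited.

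Replicate numbers 1 and 2 are shared by the genotypes, and the labels do not say that they pair animals. The deviations of same-numbered arrays correlated across genes at -0.05 for number 1 and 0.14 for number 2. KO replicate 1 and wild-type replicate 3, which differ in number, correlated at 0.19. With 2 KO arrays the deviations of each mirror those of the other, so these values cannot decide whether arrays are paired. With the replicate number as a block, where wild-type replicate 3 has no partner and drops out, the difference was -0.46 for Itgb2, -0.56 for Selplg, -0.42 for Itga4 and -0.33 for Itgb7, and 0 genes passed.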
